A study of Rattus norvegicus with 6 samples.

Results

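Aqp4 (ENSRNOG00000016043), Gja1 (ENSRNOG00000000805), Slc1a2 (ENSRNOG00000005479), Slc1a3 (ENSRNOG00000016163) and S100b (ENSRNOG00000001295) are 5 genes of astrocytes and tanycytes. Tanycytes line the ventricle above the floor of the hypothalamus. Aqp4, Gja1, Slc1a2 and Slc1a3 serve the handling of water, contact with neighbours and glutamate, and S100b encodes a calcium-binding protein. The 5 genes were taken by identifier from a table of 34510 rows of read counts from the rat median eminence. This is the strip of hypothalamic floor where nerve endings release hormones toward the pituitary. All 5 passed the filter on low counts, as did 17133 rows in all. The symbols were given together with the identifiers when the group was defined. The count table holds no symbols and the reference table used here holds no Ensembl identifiers, so the pairing could not be checked, and no other row, Gfap included, could be looked up to test the label of the tissue.

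The tissue came from S-D rats, with 3 samples labelled Control and 3 labelled PEL, taken 1 day after PEL surgery. The labels give no genotype, age or sex, do not spell out PEL, do not say whether control rats had a sham operation, and do not say whether each sample was 1 animal or a pool. Every p-value below thus rests on how far these samples differ, and part of that may be technical. The title of the series sets the comparison in a study of adult neurogenesis and self-repair of the hypothalamus, including the recovery of body fluid metabolism.

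Astrocytes surround synapses and blood vessels and keep the fluid around neurons steady. AQP4 is the main water channel of their endfeet, GJA1, a connexin, forms the gap junctions that join them into a network, and SLC1A2 (GLT-1) and SLC1A3 (GLAST) take released glutamate back out of the extracellular space. S100B is a calcium-binding protein that these cells hold and also secrete, and its release is widely used as a marker of brain injury. In the median eminence much of this work falls to tanycytes, which are known to express Slc1a3 and Gja1.

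At 1 day after PEL, none of the 5 genes passed the test of the whole table. The counts were 0 higher and 0 lower at an adjusted p under 0.05 (edgeR's quasi-likelihood test, Benjamini-Hochberg adjustment over all 17133 rows), where 5.29% of all tested rows passed, 4.21% higher and 1.07% lower. At an unadjusted p under 0.05, S100b passed alone of the 5, where 22.5% of all rows did. The DESeq2 Wald test called S100b lower and no other member, where it called 2.43% of all its tested rows lower. The median log2 fold change of the 5 genes was -0.07, against -0.02 over all tested rows. The PEL libraries differed more from each other than the controls did: the 3 control libraries lay close together for Aqp4, Slc1a2 and Slc1a3, and the 3 PEL libraries lay on both sides of them for Aqp4, Gja1 and Slc1a2.

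The libraries held 13756297 to 17144108 assigned reads, and each member was counted at least 2827 times in each library. The counting error of a single value was between 0.670% and 1.88% of it. This was well below the spread between PEL libraries of each gene, but close to that between controls for Slc1a2 and, less so, Aqp4. The 5 genes together made up 0.393 ± 0.0209% of control reads and 0.355 ± 0.0621% of PEL reads (mean ± SD of 3 libraries), with PEL replicate 2 at 0.287% and the other PEL libraries at 0.370% and 0.409%. On the first principal component of log2 expression over all tested rows, PEL replicate 3 lay nearest to the controls, at 6.59 against -35.3 to -29.9 for controls, and PEL replicate 2 lay farthest away, at 57.5. Since these are whole pieces of tissue, fewer cells of a type and less RNA per cell cannot be told apart.

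The water channel gene Aqp4 had 823, 842 and 818 CPM (counts scaled to a library size of 1000000 with TMM, the trimmed mean of M values) in control replicates 1, 2 and 3. After PEL it had 1013 CPM in replicate 1, 744 CPM in replicate 2 and 1084 CPM in replicate 3. PEL replicates 1 and 3 were above every control, at 122% and 131% of the control mean, and PEL replicate 2 was below every control, at 89.9%. The group means were 828 ± 12.5 CPM in the control group and 947 ± 179 CPM in the PEL group (SD, n = 3 each), and the log2 fold change was 0.19 (95% interval -0.11 to 0.50, edgeR adjusted p = 0.422). Without PEL replicate 2 the log2 fold change was 0.35 (edgeR adjusted p = 0.0302), in a fit that called 3.25% of rows higher. Without PEL replicate 3 it was 0.086 (edgeR adjusted p = 0.696), and without PEL replicate 1 it was 0.143 (edgeR adjusted p = 0.638). The result for Aqp4 thus depended on which PEL library was left out. PEL replicate 2 was also the library farthest from the controls over all rows.

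The gap junction gene Gja1 placed the 6 libraries in the same order as Aqp4. Its control values were 449, 473 and 418 CPM in replicates 1, 2 and 3. Its PEL values were 546 CPM in replicate 1, 351 CPM in replicate 2 and 562 CPM in replicate 3. Again PEL replicates 1 and 3 were the highest of the 6 libraries and PEL replicate 2 was the lowest, at 78.5% of the control mean. The means were 447 ± 27.4 CPM in the control group and 486 ± 117 CPM in the PEL group (SD, n = 3 each), and the log2 fold change was 0.12 (95% interval -0.26 to 0.51, edgeR adjusted p = 0.698). Without PEL replicate 2 it was 0.32 (edgeR adjusted p = 0.0568), and without PEL replicate 3 it was 0.0048 (edgeR adjusted p = 0.990).

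**Figure D1:**
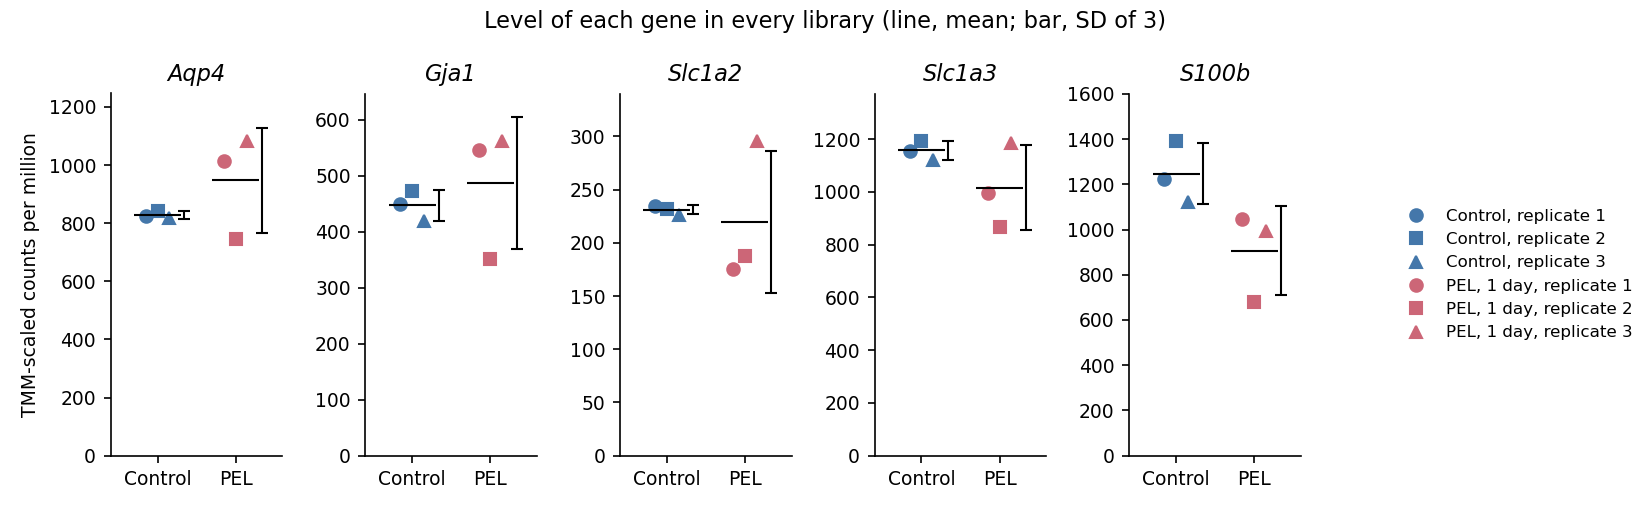
Level of each gene in CPM (y axis, from 0, a scale of its own for each gene) in the 3 control and 3 PEL libraries; points are libraries, lines are means and bars are the SD. The PEL points of Aqp4, Gja1 and Slc1a2 lie on both sides of the controls, those of S100b all lie below them, and the square of PEL replicate 2 is the lowest PEL point for 4 of the 5 genes.

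For both glutamate transporter genes, PEL replicates 1 and 2 lay below every control. Slc1a2, whose product clears most of the glutamate in the forebrain, had 235, 232 and 227 CPM in control replicates 1, 2 and 3. After PEL it had 175 CPM in replicate 1, 188 CPM in replicate 2 and 296 CPM in replicate 3. PEL replicates 1 and 2 stood at 75.9% and 81.2% of the control mean, and PEL replicate 3 was above all controls, at 128%. The means were 231 ± 4.16 CPM in the control group and 220 ± 66.3 CPM in the PEL group (SD, n = 3 each), and the log2 fold change was -0.07 (95% interval -0.49 to 0.34, edgeR adjusted p = 0.839). Without PEL replicate 3 the log2 fold change was -0.35 (edgeR adjusted p = 0.0210), in a fit that called 3.91% of rows lower. Without PEL replicate 1 or PEL replicate 2 its sign turned, to 0.07 and 0.04 (edgeR adjusted p = 0.870 and 0.939).

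Slc1a3 encodes the transporter of radial glia, tanycytes and many astrocytes. It had 1157, 1194 and 1123 CPM in control replicates 1, 2 and 3. After PEL it had 995 CPM in replicate 1, 867 CPM in replicate 2 and 1186 CPM in replicate 3. PEL replicates 1 and 2 were below all controls, at 85.9% and 74.9% of the control mean, and PEL replicate 3 was inside the control range. The means were 1158 ± 35.6 CPM in the control group and 1016 ± 160 CPM in the PEL group (SD, n = 3 each), and the log2 fold change was -0.19 (95% interval -0.46 to 0.08, edgeR adjusted p = 0.367). Its log2 fold change without PEL replicate 3 was -0.31 (edgeR adjusted p = 0.0615), and without PEL replicate 2 it was -0.079 (edgeR adjusted p = 0.665). It was below 0 with any single library left out.

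S100b was the only one of the 5 whose groups did not overlap. It had 1224, 1393 and 1124 CPM in control replicates 1, 2 and 3. After PEL it had 1045 CPM in replicate 1, 679 CPM in replicate 2 and 995 CPM in replicate 3. Each PEL library lay below the lowest control, and PEL replicate 2 stood apart at 54.5% of the control mean. Such separation with PEL lower was found in 13.7% of all tested rows, with PEL higher in 16.2%, and in either direction in 30.0%. The means were 1247 ± 136 CPM in the control group and 906 ± 198 CPM in the PEL group (SD, n = 3 each), and the log2 fold change was -0.46 (95% interval -0.84 to -0.08, unadjusted p = 0.0236, edgeR adjusted p = 0.151). Its log2 fold change was lower than that of all but 8.23% of tested rows. The tools differed on S100b: the DESeq2 Wald test gave an adjusted p of 0.0280, in a test that called 2.43% of rows lower, and limma-voom gave 0.141. The log2 fold change was -0.57 to -0.28 with each library left out, the weakest without PEL replicate 2, and no such fit called it (edgeR adjusted p of 0.113 to 0.379).

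**Figure D2:**
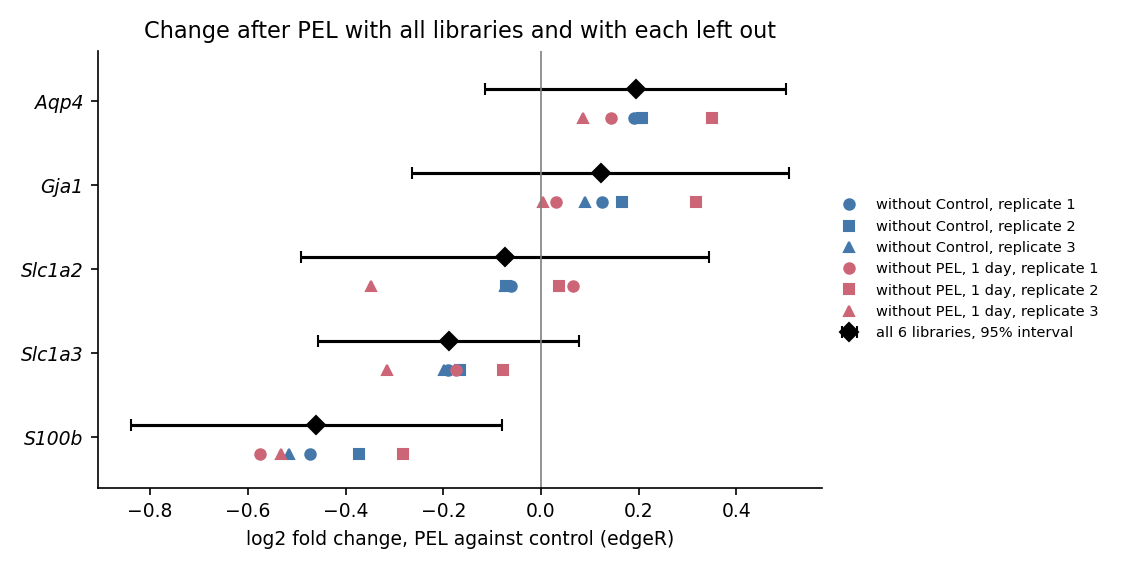
Log2 fold change after PEL against control (x axis) for each gene: black diamonds with 95% intervals use all 6 libraries, and coloured points leave out the library given in the key. Only the interval of S100b excludes 0, before adjustment over all rows, and leaving out any PEL library moves the estimates of Aqp4, Gja1 and Slc1a2 further than leaving out any control library does.

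Of the 10 pairs of the 5 genes, Gja1 and S100b had the ratio that shifted most evenly over the PEL libraries, as given with the ratios of all pairs. This pair was picked after the ratios had been seen, and its evenness was not set against that of other pairs of rows. The 250 bases before the start sites of Gja1 and S100b are shown, from the RefSeq promoter table for the GRCr8 assembly, matched by symbol. Gja1 is at chr20:36302314-36302563 on the plus strand and S100b at chr20:12381082-12381331 on the minus strand, both written 5′ to 3′ along the gene. Capitals mark TGAGTCA, a core recognised by AP-1, the dimer of Fos and Jun family proteins known as early responders to injury.
Gja1: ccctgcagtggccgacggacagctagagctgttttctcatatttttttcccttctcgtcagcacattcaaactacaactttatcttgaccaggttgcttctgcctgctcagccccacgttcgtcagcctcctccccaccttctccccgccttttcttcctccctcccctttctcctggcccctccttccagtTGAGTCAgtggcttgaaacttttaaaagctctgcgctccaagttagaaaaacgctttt
S100b: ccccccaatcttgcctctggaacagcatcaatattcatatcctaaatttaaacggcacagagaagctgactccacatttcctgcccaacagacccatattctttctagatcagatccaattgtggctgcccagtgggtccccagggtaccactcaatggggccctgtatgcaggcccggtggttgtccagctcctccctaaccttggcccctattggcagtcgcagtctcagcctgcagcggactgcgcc
The match in Gja1 begins 58 bases before the start site. TGAGTCA or its reverse complement TGACTCA was found in 4.05% of the 33469 promoter windows of this length. Of the 5 genes, Gja1 was the only one with such a match in any of its windows, and neither TGACGTCA nor TTCNNNGAA was found on either strand in the windows of the 5. Those motifs, the cores for CREB and STAT proteins, were found in 1.59% and 7.67% of all windows. These shares are per window, and Aqp4 and Slc1a2 have 2 windows each and Slc1a3 has 3. A match is a run of letters, and neither binding nor a link to the ratio was tested.

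The unequal spread was then put in numbers, as a measure chosen after the values had been seen. The coefficient of variation (CV, the SD as a share of the mean) of Aqp4 was 1.51% over controls and 18.9% over PEL libraries. For Slc1a2 it was 1.80% and 30.2%, and for Slc1a3 3.07% and 15.8%. The control values of Slc1a2 thus varied hardly more than their mean counting error of 1.67%. Those of Aqp4 had a counting error of 0.884%, so counting made up a smaller part of their spread. The PEL values of Slc1a2 varied far beyond a counting error of 1.70%. Gja1 went from a CV of 6.12% to 24.2%, and S100b, the most variable of the 5 in controls, from 10.9% to 21.8%.

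A wider spread after PEL was also seen over the table. Among the 2322 rows averaging 100 CPM or more, the median CV was 3.71% in controls and 8.23% after PEL, and the median ratio of these CVs was 2.23. The ratio was 12.5 for Aqp4 and 16.8 for Slc1a2, above 96.8% and 98.2% of those rows, and 3.95 for Gja1 and 5.14 for Slc1a3, above 75.9% and 83.4%. S100b, with a ratio of 2.00, was near the middle of the rows. The PEL CVs of the 5 genes were above those of 86.5% to 97.7% of the rows. These positions describe 3 libraries against 3 and carry no test. The rows were not matched for level, and the ratios of Aqp4 and Slc1a2 rest on low control CVs of 1.51% and 1.80%.

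**Figure D3:**
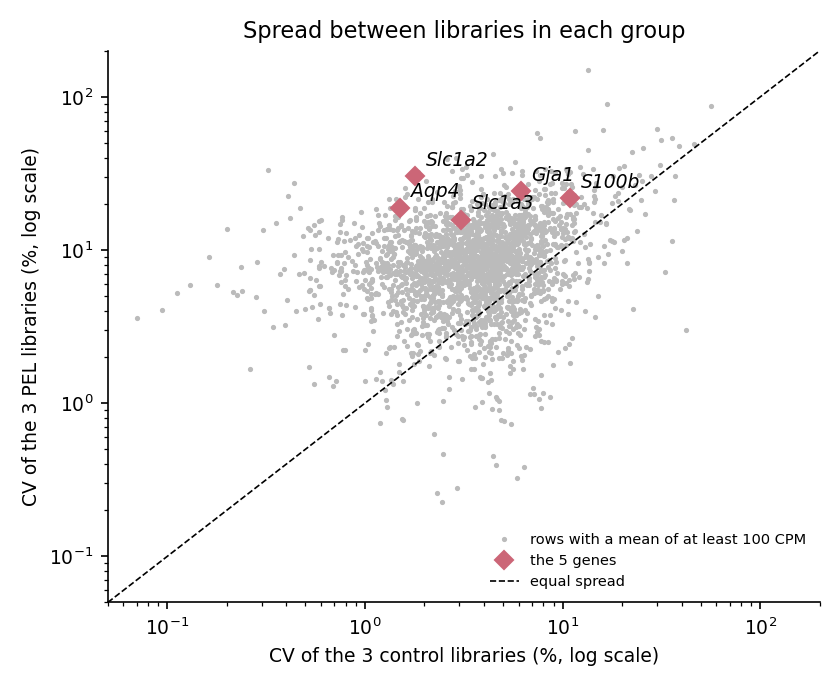
CV over the 3 PEL libraries (y axis, %, log scale) against CV over the 3 control libraries (x axis, %, log scale); grey points are the 2322 rows averaging 100 CPM or more, diamonds are the 5 genes, and the dashed line marks equal spread. All 5 diamonds lie above the line, with Aqp4 and Slc1a2 farthest from it.

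Because a ratio of 2 genes within a library does not depend on how libraries are scaled, ratios of counts were compared for all 10 pairs of the 5 genes. The ratio of Aqp4 to Gja1 had overlapping groups. There were 1.83, 1.78 and 1.96 Aqp4 reads for each Gja1 read in control replicates 1, 2 and 3, and 1.86, 2.12 and 1.93 in PEL replicates 1, 2 and 3. PEL replicate 2 was above every control, 0.19 on the log2 scale over the control mean, and PEL replicates 1 and 3 were inside the control range. The mean log2 ratio differed by 0.08 between the groups (exact two-sided permutation p = 0.4, 0.5 after Benjamini-Hochberg adjustment over the 10 pairs).

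Relative to S100b, both genes stood higher in each PEL library than in any control. In CPM, S100b changed most, with a log2 fold change of -0.46, against 0.12 for Gja1 and 0.19 for Aqp4. In PEL replicate 2, Gja1 and Aqp4 were below every control, at 78.5% and 89.9% of the control mean, and S100b was at 54.5%. There were 0.367, 0.340 and 0.372 Gja1 reads for each S100b read in control replicates 1, 2 and 3. The PEL values were 0.522, 0.516 and 0.565 in the same order, a 1.49-fold higher ratio. The log2 ratio averaged -1.48 ± 0.07 over controls and -0.90 ± 0.07 over PEL libraries (SD, n = 3 each), a difference of 0.57 that was about as tight within the PEL group as within the controls. The difference was 0.53 to 0.60 with each library left out. For Aqp4 the reads for each S100b read numbered 0.673, 0.605 and 0.728 in control replicates 1, 2 and 3 and 0.970, 1.095 and 1.09 in the PEL replicates, a log2 difference of 0.66. Both pairs had p = 0.1 in the exact two-sided permutation test, the smallest that 3 against 3 allows, and 0.2 after adjustment over the 10 pairs.

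In all, 5 of the 10 pairs had ratios that did not overlap between the groups, the others being Aqp4 to Slc1a2, Aqp4 to Slc1a3 and Gja1 to Slc1a3, each with p = 0.1 and an adjusted p of 0.2 in the exact permutation test. The pairs share genes and are not independent. Over all pairs of rows averaging 100 CPM or more, 38.6% did not overlap, so the count is not far from the background. The log2 difference was 0.38 for Aqp4 to Slc1a3, from -0.48 ± 0.02 to -0.11 ± 0.12, and 0.29 for Gja1 to Slc1a3, from -1.38 ± 0.04 to -1.08 ± 0.22 (SD, n = 3 each). Without PEL replicate 1 the difference for Gja1 to Slc1a3 was 0.18. For Aqp4 to Slc1a2 it was 0.29, and 0.09 without PEL replicate 1, so its size rested on that library. Its groups were barely apart, with 3.66 Aqp4 reads for each Slc1a2 read in PEL replicate 3, against 3.63 in control replicate 2. That gap was within the counting error of Slc1a2 in those libraries, 1.41% and 1.64%. The groups of Gja1 to Slc1a3 were also close, at 0.405 in PEL replicate 2 against 0.396 in control replicate 2.

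The transporter genes diverged from each other in PEL replicate 3 and PEL replicate 1, in opposite directions. There were 0.203, 0.194 and 0.202 Slc1a2 reads for each Slc1a3 read in control replicates 1, 2 and 3. The PEL values were 0.176 in replicate 1, 0.216 in replicate 2 and 0.250 in replicate 3. PEL replicate 1 was thus below all controls and the other PEL libraries above them, and the groups overlapped as ranges (log2 difference 0.09, exact two-sided permutation p = 0.7, 0.7 after adjustment over the 10 pairs). PEL replicate 1 also had the most Gja1 for its Slc1a2, at 3.11 reads against 1.85 to 2.04 in the other 5 libraries.

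**Figure D4:**
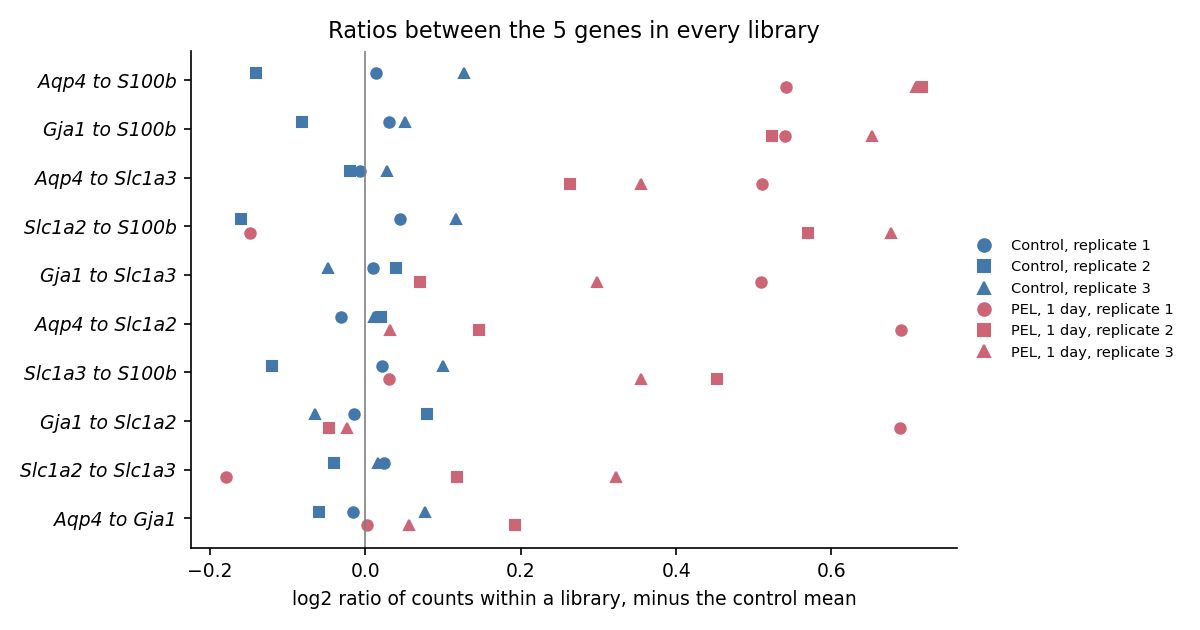
Log2 ratio of counts within a library for the 10 pairs of genes, minus the mean of the 3 controls (x axis); each point is 1 library, as in the key. The PEL points of Aqp4 to S100b and Gja1 to S100b lie between 0.52 and 0.72 above the control mean, and those of Aqp4 to Gja1 overlap the controls.

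Rows with the most similar profile were sought among 12988 other tested rows averaging 5 CPM or more, by the root mean square difference between log2 CPM profiles over the 6 libraries, each centred on its own mean. Gja1 was nearest to Aqp4 of the 4 other members, at 0.081, and was ranked 22 among all rows for Aqp4, while Aqp4 was ranked 9 for Gja1. The row nearest to Aqp4 was ENSRNOG00000012658 (0.039) and that nearest to Gja1 was ENSRNOG00000039152 (0.051). The row nearest to Slc1a3 was ENSRNOG00000005568 (0.015) and that nearest to S100b was ENSRNOG00000005195 (0.034). No symbol could be given to these 4 rows, and none of them passed the test of the whole table. Within a difference of 0.1 there were 637 rows for Slc1a3, 51 for Aqp4, 36 for S100b, 18 for Gja1 and 14 for Slc1a2. These numbers of rows fell in the order in which the PEL CV rose, from 15.8% for Slc1a3 to 30.2% for Slc1a2. They were therefore not read as a trait of the profile apart from its spread.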

How the data were processed

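RNA of the median eminence was sequenced in 3 control samples and 3 samples taken after PEL. Per the submitters' processing notes, the tools were HISAT2 2.0.5 (alignment), featureCounts 1.5.0-p3 (read assignment) and DESeq2 1.16.1. Genome build, annotation and strand setting: not given in the sources used here. Overlapping genes may therefore share reads. The deposited table holds raw counts per gene, not normalized by the authors. From it, counts were scaled by TMM over all rows, kept by filterByExpr (minimum count 10) and tested with edgeR 4.0.16 in R 4.3.3 (glmQLFTest, two-sided, group as the only term, all 6 samples). Each 95% interval uses a standard error taken as the size of the estimate over the root of its F statistic. Called means an adjusted p under 0.05. Alternatives used DESeq2 1.42.0 and limma 3.58.1. The procedure was tested on simulated counts. Figures used matplotlib 3.10.9. Within each group every pair of libraries differed beyond sampling noise (chi-square of 4.50 to 24.1 per degree of freedom). This sets them apart from repeat reads of 1 library, but cannot tell separate animals from separate preparations of 1 pool. Each library was counted as 1 replicate.

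The 5 genes, the alternatives and the tests were chosen with earlier results of these data known. All 5 genes were named. Other rows were named by the rule of the 2 nearest profiles per gene, limited to 2 identifiers higher and 2 lower after PEL, and the nearest row of 4 of the genes was given. Marker and pathway lists fixed by symbol were not run, since identifiers could not be paired with symbols (0 of 32883 Ensembl rows matched). The CV, the background over all pairs, the choice of the Gja1 and S100b promoters and the promoter motifs were added after the values had been seen.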

Additional observations from a re-analysis of the deposited data

How the results depend on the processing

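With TMM, DESeq2 size factors, upper-quartile scaling or library size alone, and with either other filter, no member was called and all 5 kept their sign. The DESeq2 Wald test called 1 member lower, S100b (log2 fold change -0.46, adjusted p 0.0280), and over all rows 1199 higher and 437 lower, against 722 and 184 as reported. In a fit with a replicate block (the number in the titles), 442 rows were higher and 102 lower, and again no member was called. Deviations from the group means correlated at -0.0041, -0.060 and -0.069 between samples of the same number, so the number was not taken as a pairing. Leaving out 1 library gave 161 to 1409 rows higher and 12 to 683 lower, 0 to 1 members called higher and 0 to 1 called lower. The log2 fold change then ranged from 0.086 to 0.35 for Aqp4, -0.35 to 0.066 for Slc1a2, -0.31 to -0.079 for Slc1a3 and -0.57 to -0.28 for S100b. The calls were those of Aqp4 without PEL replicate 2 and Slc1a2 without PEL replicate 3, and Slc1a2 turned to 0.066 and 0.037 without PEL replicates 1 and 2. The cause was not tested. The log2 ratio of Gja1 to Slc1a2 ranged from -0.035 to 0.33 (0.21 as reported) and that of Slc1a2 to Slc1a3 from -0.031 to 0.22 (0.09 as reported), and the other 8 pairs kept their sign. Adding 0.5 to each count changed no sign. With 3 libraries per group, the 95% intervals did not exclude levels 1.42-fold higher for Aqp4 and Gja1, or 0.712 of the control level for Slc1a2.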
